A study of Mus musculus with 6 samples.

Results

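The expression of 9 genes of the cardiac transcription factor network was examined in sorted mouse embryo cells: the GATA factors Gata4, Gata5 and Gata6, their FOG cofactors Zfpm1 and Zfpm2, the HAND factors Hand1 and Hand2, the homeobox gene Nkx2-5 and the ventricular homeobox gene Irx4. They were chosen by name, as every probe set whose platform annotation names only 1 of these genes. All 9 had such a probe set, giving 9 of the 18193 genes measured this way and 18 of 34945 single-gene probe sets. Of the 9 genes, 2 had 1 probe set, 5 had 2 and 2 had 3.

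The series asks how Notch1, β-catenin and Isl1 act together in the fate of cardiac progenitors, and compares 3 wild-type with 3 mutant arrays from embryos at E9.0. All cells were YFP+ cells isolated by fluorescence-activated sorting, where YFP marks the domain in which Cre recombinase driven by Isl1 has acted. The mutant embryos carried Isl1-cre, Rosa-YFP and Beta-catenin (loxP ex3), an allele in which removal of the floxed exon yields a stabilised β-catenin, the effector of canonical Wnt signalling. The wild-type cells are described only as wild type and YFP+, so any Cre or reporter allele they share with the mutants is known only from that sorting. Isl1-cre marks descendants of cells that once expressed Isl1, which are not all cardiac. The number of embryos behind each array is not given, so each p-value reflects only the scatter among these arrays, which may be technical in part.

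GATA4, GATA5 and GATA6 are zinc finger proteins that bind the sequence GATA and switch on heart muscle, endocardial and endoderm genes. FOG1 and FOG2, the products of Zfpm1 and Zfpm2, bind GATA zinc fingers and recruit corepressors; FOG1 is known best from blood and FOG2 from the heart and epicardium. HAND1 and HAND2 are basic helix-loop-helix proteins of heart, lateral mesoderm and, for HAND2, pharyngeal arches. NKX2-5 works with GATA4 on shared cardiac promoters, and IRX4 marks ventricular muscle.

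Values are on a log2 scale, so that a difference of 1 is a doubling. A rough background level of 4.848 was taken from bacterial control probe sets, and 22.4% of all genes averaged no more than it. Second heart field progenitor markers were present, with 9 of 10 measured and all 9 above background, as were all 10 cardiomyocyte markers. Other cell types were present too: the embryonic globins Hba-x, Hbb-bh1 and Hbb-y of primitive red cells read between 13.26 and 14.08 on every array, near the top of the scale (15.07). Replicate 1 of each group stood low in the summed level of 8 visceral endoderm markers, mainly through the secreted proteins Afp, Ttr and Rbp4. Single markers did not all follow: wild-type replicate 1 was lowest of its group for 4 of the 8, mutant replicate 1 for 6. Apoa4 and Amn were lowest on replicate 1 in neither group, and Apob and Cubn only in the mutant. Among wild-type arrays Afp was at 4.08 on replicate 1 and at 11.51 and 11.52 on the others; among mutant arrays it was at 2.60 on replicate 1 and at 9.46 and 10.00 on the others. Values without these 2 arrays are given after the GATA factors. The number of arrays limits the precision throughout.

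None of the 9 genes passed the test. The limma adjusted p-values, adjusted over all 18193 genes, ran from 0.317 to 0.99 for the genes standing for the members, at a threshold of 0.05. The same test called 12 genes in all, 0.066% of those tested. At an unadjusted p under 0.05, limma had 2 of 9 members lower in the mutant, against 4.84% of all genes, and 0 higher, against 6.76%. These 2 were Gata5 and Nkx2-5, and they were also the 2 members whose mutant values all lay below all wild-type values, a pattern seen in 9.18% of all genes. The opposite pattern was seen in 0 members and in 8.64% of genes. Both group means of Nkx2-5 lay below the background level, so of these 2 only Gata5 was at a measured level. Counts this small were not tested against the shares over all genes. Mutant means were lower for 8 of 9 members, against 55.3% of all genes, with a median difference of −0.14 against −0.0302 over all genes. That median is the value of Zfpm2 on probe set 1419012_at, while the other probe set of Zfpm2 gave 1.24, so it too depended on the probe set. The count of 8 did so as well. It was 5 of 9 with the mean of all probe sets of a gene and 5 of 9 with the most variable one. It was 6 without mutant replicate 1, and 6 without both arrays low in visceral endoderm markers.

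**Figure D1:**
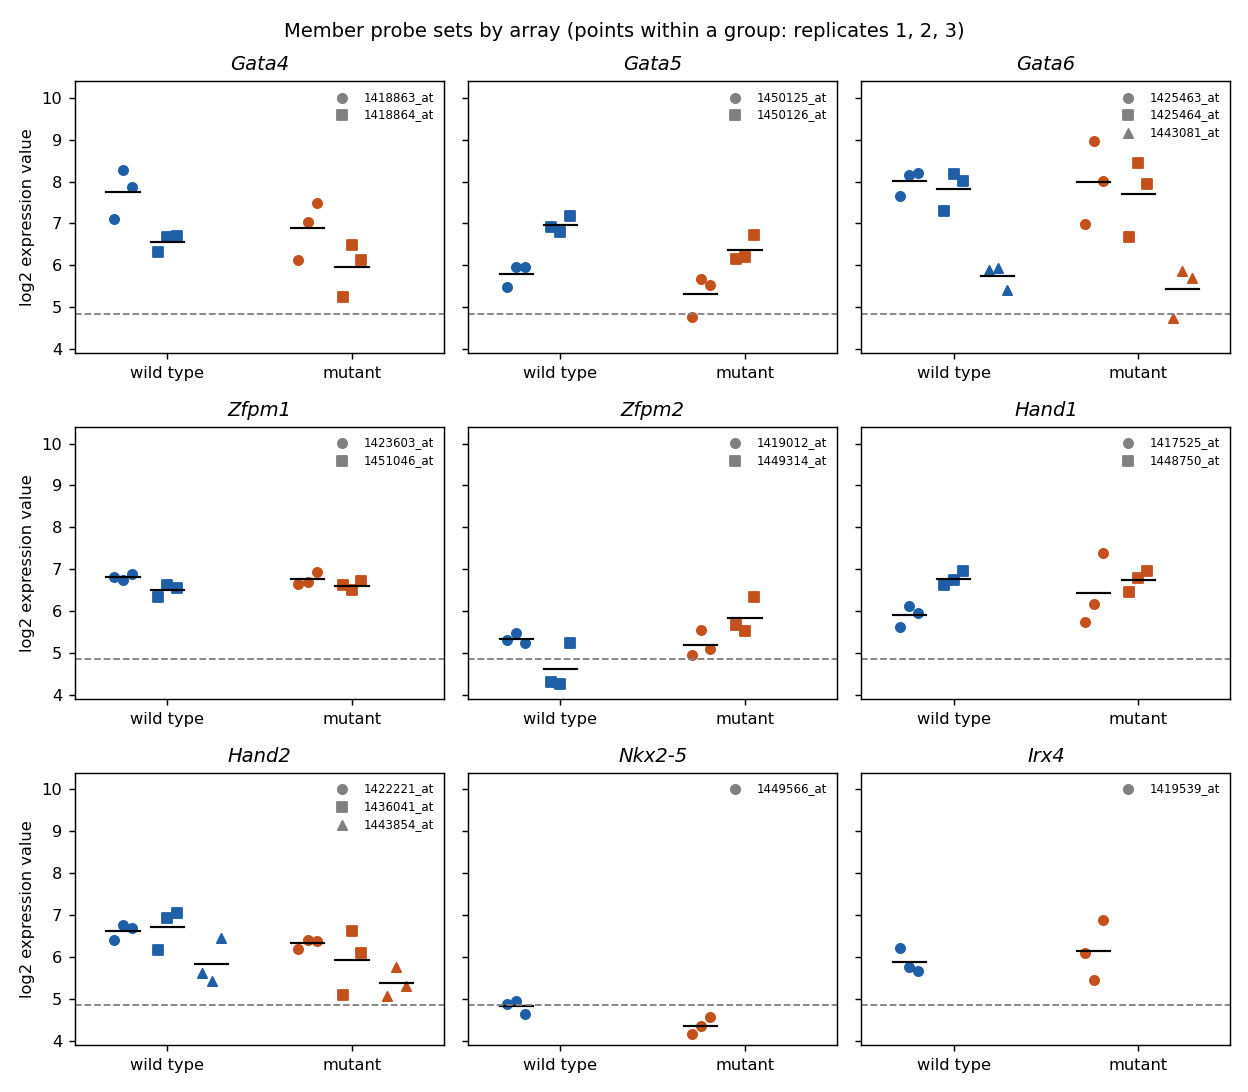
Log2 expression values (vertical axis) of the 18 member probe sets in wild-type (blue) and mutant (orange) arrays. Each panel is 1 gene, marker shapes are its probe sets, points are replicates 1 to 3 from left to right, short lines are group means and the dashed line is the background level of 4.848. Gata4, Gata5 and Hand2 sit lower in the mutant for each of their probe sets, with overlap for all but probe set 1450126_at of Gata5, while Nkx2-5 lies near or below the dashed line.

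With every probe set tested, 0 of the 18 passed (limma adjusted p from 0.264 to 0.99), and 8 of 34945 did over the whole array, or 0.0229%. At an unadjusted p under 0.05 limma had 2 member probe sets lower, against 4.91%, and 1 higher, against 6.51%. Groups did not overlap for 2 of 18 in the lower direction, against 9.04%, and for 1 of 18 in the higher, against 8.45%. These shares, 11.1% and 5.56%, are near the background in counts this small. Mutant means were lower for 14 of 18 probe sets, against 54.8% of all probe sets, and for 10 of 18 without mutant replicate 1.

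Among the GATA factors, Gata4 had the widest gap between group means. On probe set 1418863_at, wild-type arrays read 7.11, 8.27 and 7.88 for Gata4, and mutant arrays 6.13, 7.04 and 7.49. Mutant replicates 1 and 2 lay below every wild-type array, and replicate 3 lay above wild-type replicate 1, so the groups overlap. The means were 7.76 ± 0.59 and 6.88 ± 0.69 (SD, n = 3), a difference of −0.87 with SE 0.40, which puts the mutant at 0.546 of the wild-type level (limma adjusted p = 0.459). The 95% interval of the difference ran from −1.81 to 0.06. Its other probe set, 1418864_at, gave −0.62 with SE 0.30. Without mutant replicate 1 the differences were −0.49 for 1418863_at and −0.26 for 1418864_at. Since these are bulk samples, fewer cells of a type and less RNA per cell cannot be told apart, here and below.

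Gata5, known for its part in endocardium and endoderm, stood lower in the mutant without overlap on the probe set that represents it. It read 6.91, 6.80 and 7.18 in wild type and 6.15, 6.20 and 6.72 in mutant cells (probe set 1450126_at). Every mutant array lay below every wild-type array, though mutant replicate 3 came close to the lowest of them. The difference was −0.61 with SE 0.19 and a 95% interval from −1.05 to −0.16, a mutant level of 0.656 of wild type, and it did not pass over all genes (limma adjusted p = 0.317). Probe set 1450125_at gave −0.48 with SE 0.26, and −0.20 without mutant replicate 1, and there the groups overlapped.

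Gata6, expressed in endoderm and in cardiac and smooth muscle precursors, showed no common direction. It read 7.66, 8.15 and 8.21 in wild type and 6.99, 8.97 and 8.01 in mutant cells (probe set 1425463_at). The mutant arrays held both the lowest and the highest of the 6 values. The difference was −0.02 with SE 0.45 and a 95% interval from −1.07 to 1.03, so a change of up to about a doubling either way cannot be told from none here. The mutant SD was 0.99, against a median of 0.188 over all genes. The other 2 probe sets gave −0.14 and −0.31, and the sign of the difference turned without mutant replicate 1, to 0.48. Whether Gata4 and Gata6 changed unequally was tested on their within-array difference: it was lower in the mutant by 0.85 on average, with an exact permutation p of 0.2 (adjusted over 4 such pairs, 0.267). The same test of Gata5 against Gata6 gave a lower within-array difference in the mutant by 0.59, with an exact permutation p of 0.5 (adjusted 0.5). With 3 against 3 arrays that two-sided test cannot go below 0.1. These pairs were chosen after their values were seen, and the adjustment covers only the 4 pairs chosen.

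**Figure D2:**
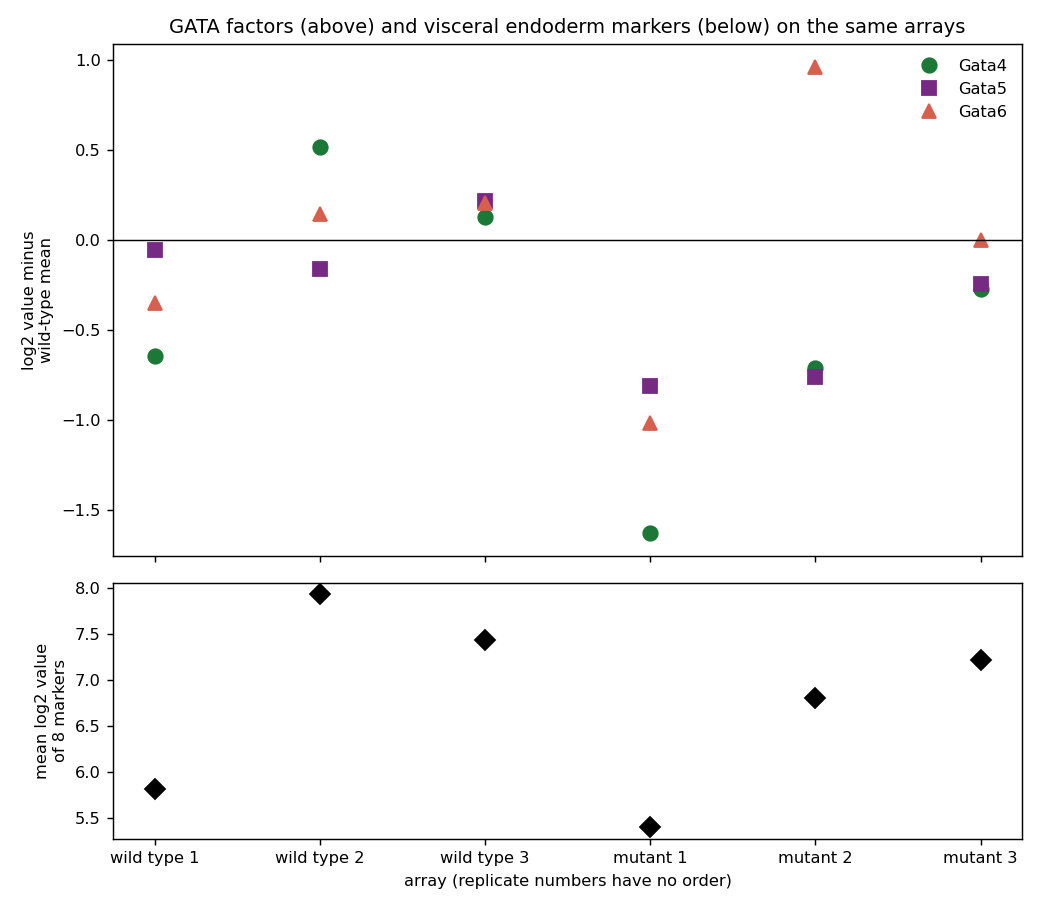
Upper panel: log2 values of Gata4, Gata5 and Gata6 minus each gene's wild-type mean, on each of the 6 arrays. Lower panel: mean log2 value of 8 visceral endoderm markers on the same arrays. On their plotted probe sets, Gata4 and Gata6 were lowest within each group on replicate 1, where the markers averaged 5.82 (wild type) and 5.40 (mutant). The plotted probe set of Gata5, 1450126_at, was lowest on replicate 2 in wild type, while its other probe set was lowest on replicate 1 in both groups. Probe set 1443081_at of Gata6, not plotted, was lowest on replicate 3 in wild type and on replicate 1 in the mutant.

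The visceral endoderm, which lies outside the embryo proper, also uses Gata4 and Gata6. In the list named after it, Amn read near background, at 5.06 to 5.42 in wild type and 4.72 to 5.15 in mutant cells. Cubn read 5.20 to 5.36 in wild type and 5.65 to 6.35 in mutant cells. Which tissue the markers of this list came from was not tested, and their levels were uneven. All 8 were measured, none had a mean at or below background, and their summed linear values were 561, 5650 and 4404 in wild type and 493, 1486 and 2427 in the mutant. Replicate 1, with the lowest sum of each group, held the lowest value of both groups for 4 of 9 members (Gata4, Gata6, Hand1 and Hand2), against 13.5% of all genes, and for 9 of 18 member probe sets, against 12.7% of all probe sets. Mutant replicate 1 alone was the lowest of its group for 8 of 9 members, all but Irx4, against 34.9% of all genes, and wild-type replicate 1 for 4 of 9, against 37.5%. Without both of these arrays the difference of Gata4 was −0.81 for 1418863_at (limma adjusted p = 0.267) and −0.38 for 1418864_at. That of Gata5 was −0.53 for 1450126_at and −0.36 for 1450125_at, and that of Gata6 0.30. For Hand2 it was −0.33 for 1422221_at, −0.63 for 1436041_at and −0.39 for 1443854_at, and for Nkx2-5 −0.33. The other members gave −0.01 for Zfpm1, −0.03 for Zfpm2, 0.02 for Hand1 and 0.45 for Irx4, and 10 of 18 member probe sets had lower mutant means. The part of visceral endoderm in the members' values was not tested.

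The FOG cofactors gave little difference for Zfpm1 and a split result for Zfpm2. Zfpm1 read 6.81, 6.74 and 6.90 in wild type and 6.66, 6.69 and 6.92 in mutant cells (probe set 1423603_at). The 6 values span a narrow range and the groups overlap. Its difference was −0.06 with SE 0.13 and a 95% interval from −0.36 to 0.24, and its other probe set gave 0.10.

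Zfpm2 read 5.32, 5.48 and 5.23 in wild type and 4.96, 5.55 and 5.10 in mutant cells with the probe set that has the higher mean, 1419012_at. That is a difference of −0.14 with SE 0.18, with overlapping groups. Probe set 1449314_at read 4.32, 4.26 and 5.25 in wild type and 5.67, 5.53 and 6.33 in mutant cells. Here every mutant array lay above every wild-type array, the only member probe set of the 18 with that pattern. The difference of 1.24 with SE 0.32 did not pass over all probe sets (limma adjusted p = 0.264). The wild-type mean of 4.61 lay below the background level, so the size of the gap is not a measured fold. The test of the within-array difference between the Zfpm2 probe sets gave an exact permutation p of 0.2 (adjusted 0.267), with overlap between the groups. This pair was likewise chosen after its values were seen. Which transcripts each probe set detects was not analysed here.

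The epicardium and proepicardium, where Zfpm2 is known to be expressed, were represented by Wt1, Tbx18, Tcf21 and Upk3b. None of these 4 had a mean at or below background, 3 of 4 had higher mutant means and none passed. Their summed linear values were 258 to 747 in wild type and 507 to 922 in mutant cells. Their part in the Zfpm2 values was not tested.

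**Figure D3:**
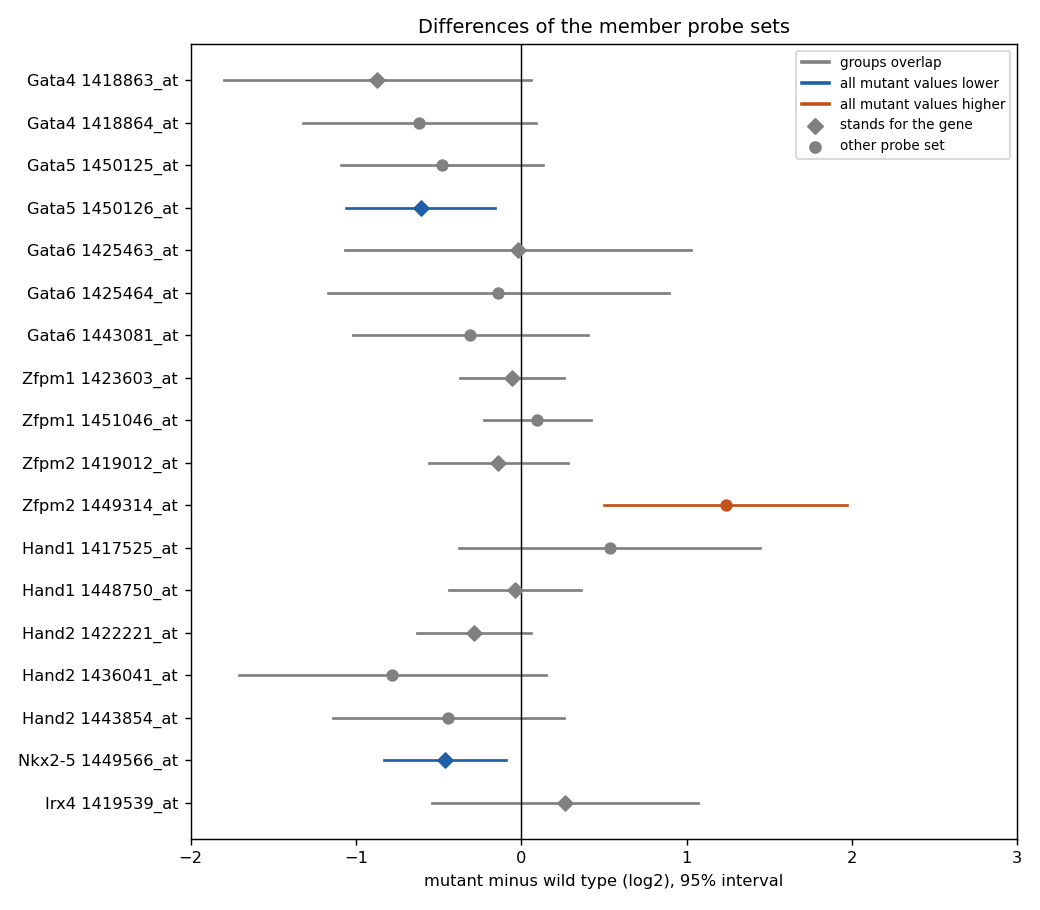
Mutant minus wild-type difference (log2, horizontal axis) of the 18 member probe sets with 95% intervals from limma. Diamonds stand for the gene and circles are other probe sets. Blue marks probe sets whose mutant values all lay below wild type (Gata5 1450126_at and Nkx2-5) and orange the one whose mutant values all lay above (Zfpm2 1449314_at, at 1.24).

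The HAND factors differed in how their probe sets lined up. Hand2 read 6.40, 6.76 and 6.70 in wild type and 6.20, 6.41 and 6.39 in mutant cells (probe set 1422221_at). Only mutant replicate 2 reached above the lowest wild-type array, by a small margin. The difference was −0.29 with SE 0.14 and a 95% interval from −0.62 to 0.05 (limma adjusted p = 0.49). The other 2 probe sets were also lower in the mutant, with a difference of −0.78 (SE 0.40) for 1436041_at and of −0.44 (SE 0.30) for 1443854_at. Without mutant replicate 1 these were −0.36 and −0.28, and without wild-type replicate 3 that of 1443854_at was −0.13. Probe set 1436041_at read 6.17, 6.94 and 7.04 in wild type and 5.10, 6.62 and 6.09 in mutant cells, with mutant replicate 1 the lowest.

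Hand1 read 6.62, 6.74 and 6.97 in wild type and 6.47, 6.79 and 6.96 in mutant cells (probe set 1448750_at). The groups overlap almost entirely, with a difference of −0.04, SE 0.17 and a 95% interval from −0.43 to 0.35. Probe set 1417525_at gave 0.53 with SE 0.39, carried by mutant replicate 3 at 7.39 while the other mutant arrays read 5.74 and 6.17. Without that array the difference of this probe set was 0.06. The within-array difference between Hand2 1422221_at and Hand1 1448750_at was lower in the mutant by 0.25 on average. Its exact permutation p was 0.1, the smallest that 3 against 3 arrays allow (adjusted 0.267). This pair was chosen after its values were seen, and other probe sets of the 2 genes were not tested this way.

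Hand2 is also expressed in neural crest cells of the pharyngeal arches. Of 6 neural crest markers 5 had higher mutant means, and none passed over all genes. Sox10 gave 1.07 with overlapping groups, Tfap2a 0.93 with every mutant array higher, and Foxd3 −0.11. The summed linear values of the 6 ran from 2068 to 2471 in wild type and from 3600 to 4239 in mutant cells, so that the groups did not overlap. These sums were higher in the mutant group and the Hand2 means lower. The part of these markers in the Hand2 values was not tested.

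Nkx2-5 read 4.89, 4.95 and 4.63 in wild type and 4.17, 4.34 and 4.56 in mutant cells (probe set 1449566_at, its only one). Every mutant array lay below every wild-type array, but both group means, 4.82 and 4.36, lay below the background level of 4.848, so no fold is given. The difference was −0.46 with SE 0.15 (limma adjusted p = 0.346). It is the 1 member probe set of the 18 with an overall mean at or below background. Irx4 read 6.22, 5.76 and 5.66 in wild type and 6.10, 5.45 and 6.88 in mutant cells (probe set 1419539_at). The mutant arrays again held both the lowest and the highest value, and the difference was 0.26 with SE 0.35 and a 95% interval from −0.54 to 1.07. Without mutant replicate 3 it was −0.11.

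The sequences upstream of 3 members are given because these genes have a promoter entry and a result described above: the groups of Gata5 and Nkx2-5 did not overlap, and all probe sets of Hand2 stood lower. They are from RefSeq on GRCm38.p6, 5′ to 3′ on the gene's strand, and hold the 250 bases before the start site. Promoter windows were kept for 5 of the 9 members. Those on a certain chromosome were left out, so a member not among the 5 may still have an entry. Capitals mark matches to the motifs named below.
Gata5, chr2:180334680-180334929, minus strand: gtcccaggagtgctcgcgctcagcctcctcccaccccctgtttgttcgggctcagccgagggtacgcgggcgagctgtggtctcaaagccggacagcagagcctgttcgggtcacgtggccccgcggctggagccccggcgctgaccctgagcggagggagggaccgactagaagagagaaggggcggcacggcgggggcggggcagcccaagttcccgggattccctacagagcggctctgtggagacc
Nkx2-5, chr17:26841566-26841815, minus strand: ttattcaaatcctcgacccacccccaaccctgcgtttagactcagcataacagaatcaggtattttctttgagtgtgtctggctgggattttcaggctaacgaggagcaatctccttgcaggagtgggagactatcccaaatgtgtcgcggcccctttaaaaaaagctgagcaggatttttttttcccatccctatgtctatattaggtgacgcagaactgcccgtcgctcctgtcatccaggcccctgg
Hand2, chr8:57320733-57320982, plus strand: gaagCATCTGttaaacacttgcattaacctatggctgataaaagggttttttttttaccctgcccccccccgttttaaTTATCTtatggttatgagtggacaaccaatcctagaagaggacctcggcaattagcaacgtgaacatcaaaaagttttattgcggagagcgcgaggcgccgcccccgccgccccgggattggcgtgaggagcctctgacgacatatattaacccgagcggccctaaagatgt

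The motifs were searched as exact letters on both strands: AGATAA for GATA factors, TNAAGTG for NK2 factors, CATCTG as a HAND E-box, and CTTTGAT and CTTTGAA for the TCF/LEF partners of β-catenin. Hand2 held CATCTG with its first base 246 bases before the start site, and AGATAA on the opposite strand (read as TTATCT above) from 172 bases before it. The matches do not overlap each other. Other sequences that hold the letters GATA, such as the unmarked tgataa in the Hand2 window, were not searched for. Over 32851 such windows of 27025 genes, CATCTG was found in 14.4%, AGATAA in 9.99%, TNAAGTG in 10.1%, CTTTGAA in 4.46% and CTTTGAT in 3.21%. The windows of Gata5, Nkx2-5, Zfpm1 and Irx4 held none of these letters, which says only that they are not in these windows. The Gata5 window was 70% G and C, against 49.2% for both Hand2 and Nkx2-5.

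Of 18 cardiac target genes, on which the 9 factors are known to act, 0 passed in either direction. Mutant means were lower for 12 of 18, against 55.3% of all genes, and the median difference was −0.32 against −0.03 over all genes. At an unadjusted p under 0.05, limma had 3 lower, against 4.84% of all genes, and 1 higher, against 6.76%. Tnnt2, cardiac troponin T, read 10.85, 11.12 and 10.74 in wild type and 9.94, 10.21 and 10.28 in mutant cells. The difference was −0.76 with SE 0.16 (limma adjusted p = 0.187). Gja5, a gap junction connexin, gave −0.53 with SE 0.13, also with every mutant array lower. The atrial natriuretic peptide gene Nppa, a classic target of GATA4 and NKX2-5, differed in the other direction. Nppa read 5.89, 7.02 and 6.76 in wild type and 8.04, 7.39 and 7.71 in mutant cells, with every mutant array higher (1.16, SE 0.31, limma adjusted p = 0.244).

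Partner factors that bind with the members, or modify chromatin with them, were split. Of 17 measured 0 passed, 10 had lower and 7 higher mutant means, with a median of −0.08. Myocd, the coactivator of serum response factor, gave −1.40 with SE 0.23 and Tbx20, a T-box partner of GATA4 and NKX2-5, −0.94 with SE 0.22, both with every mutant array lower. Nfatc4, whose product binds GATA4, gave 0.67 with SE 0.18, with every mutant array higher. None of these 3 passed over all genes (limma adjusted p = 0.131, 0.22 and 0.241).

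Relatives outside the panel, namely other GATA, NK2, Iroquois and Twist-type genes, also gave 0 called of 20. Mutant means were lower for 13 and higher for 7, with a median of −0.12. Irx5, an Iroquois gene, gave 0.37 with SE 0.15 and was higher on every mutant array, while Irx1 gave 0.32 and Msc, a helix-loop-helix repressor, −0.75, both with overlapping groups. The blood factor Gata1, a partner of FOG1, read 7.18 to 8.34 in wild type and 6.74 to 8.58 in mutant cells.

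The corepressors that FOG proteins recruit showed small differences. Of 12 measured 0 passed, 9 had lower and 3 higher mutant means, and the median was −0.06. The helicase Chd4 gave −0.22, Gatad2a −0.26 and the corepressor Ctbp2 −0.21, the first 2 with every mutant array lower. Of 10 BMP ligands, receptors and Smads, which are known to induce Nkx2-5, Gata4 and Hand genes in early mesoderm, 0 passed, and 7 had higher and 3 lower mutant means (median 0.03). Bmp2 read 5.26, 5.46 and 5.40 in wild type and 5.87, 7.04 and 7.24 in mutant cells, higher on every mutant array (1.35, SE 0.33, limma adjusted p = 0.232). Bmp4 gave 0.84 with overlapping groups, and the transducer Smad5 −0.17. The targets, partners and inputs were grouped with earlier results of these data known, so they are no independent support for the members' directions.

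**Figure D4:**
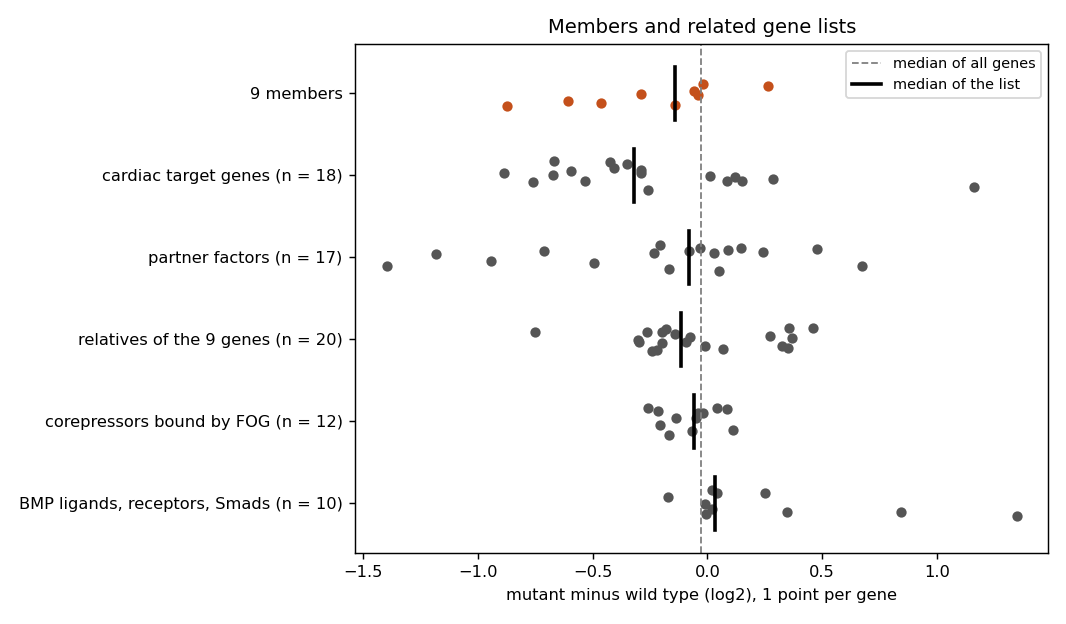
Mutant minus wild-type difference (log2, horizontal axis), 1 point per gene, for the 9 members and 5 related gene lists. Black bars are list medians and the dashed line is the median of all genes, −0.03. The members' median was −0.14, which is the value of Zfpm2 on probe set 1419012_at. That of the cardiac target genes was −0.32, with Nppa at 1.16 on the far right of its row.

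Cardiomyocyte markers, which share genes with the target list, had summed linear values of 8613, 12726 and 9666 in wild type and 7126, 7658 and 9000 in mutant cells, with none of 10 at or below background. Gata5 is known to act in endocardium. A list of endothelial and endocardial markers, which does not separate the 2 cell types, had sums of 2570, 2361 and 1484 in wild type. In mutant cells the sums were 2338, 2908 and 3083, with 6 of 7 markers higher in the mutant and none called. The marker with the lower mutant mean was Nfatc1, at −0.42 with overlapping groups. Primitive erythroid sums ran from 42693 to 48639 in wild type and from 35341 to 52326 in mutant cells, with lower mutant means for all 7 markers measured and none called. Gut endoderm sums were 3944, 3879 and 2927 in wild type and 3399, 4259 and 5655 in mutant cells, with 3 of 6 markers higher. Of the 3 lower, Shh gave −1.26 and Foxa1 −1.07, both with every mutant array lower. Second heart field progenitor sums ran from 2874 to 3295 in wild type and from 2678 to 3330 in mutant cells. Of 9 markers 6 had higher mutant means, while Isl1 gave −1.18 with every mutant array lower. None of either list was called. The part of these cell types in the members' values was not tested.

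The 3 genes whose array profile lay nearest to that of Gata4 were sought among 14125 other genes above background, by the mean absolute gap between values centred on each gene's own mean over the 6 arrays. They were Dhx58, a RIG-I-like RNA sensor, at a mean gap of 0.16, the homeobox gene Hoxa4 at 0.18 and Gask1b at 0.24. Dhx58 read 5.16, 6.09 and 5.91 in wild type and 4.30, 4.92 and 5.09 in mutant cells. All 3 genes were lowest on mutant replicate 1, as Gata4 was, which follows from how they were chosen. None passed the test.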

How the data were processed

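Total RNA of 6 samples was extracted with Trizol, amplified from very small amounts with WT-Ovation Pico and hybridised to 1 Affymetrix array each, per the labels' protocols. The deposited values are log2, 1 per probe set and array; that base follows from their range, 1.89 to 15.07. How the authors corrected, summarised and normalized them is not given in the sources used. Array medians lay between 6.47 and 6.5, and sorted values differed by an SD of at most 0.07 at any rank, so the arrays appear aligned and were not rescaled. Of 45101 probe sets, 34945 name 1 gene, 932 several, 9160 are unnamed here and 64 are controls. Symbols came from GEO's platform annotation, updated by gene identifier for 34741. A gene with several probe sets was represented by the brightest on average. Background was the 95th percentile of 27 bacterial control means. Groups were compared with limma 3.58.1 under R 4.3.3, two-sided and without covariates, with Benjamini-Hochberg adjustment over all genes, or over all probe sets for values given by probe set. SE and 95% intervals are moderated; those of a gene's standing probe set come from the fit over genes. The fit was tested on 20 simulated data sets of independent normal values, with 200 of 18193 genes shifted. It called 51.4% of genes shifted by 1 on the log2 scale and 91.5% of those shifted by 2. It also called 6.8 unshifted genes on average. A gene that did not pass may therefore still have changed. The genes named were all members and, per list, the 3 with the smallest p. Named marker genes, Gata1, and the 4 within-array pairs were chosen after their values were seen. The members and lists were chosen with earlier results of these data known. The alternatives tried were quantile normalization, centring on medians, a block for replicate number, leaving out the dimmest 40%, other probe set choices, a trended robust prior, array weights and leaving out each array; leaving out both arrays low in visceral endoderm markers was added after the values were seen.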

Additional observations from a re-analysis of the deposited data

How the results depend on the processing

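No member was called under any of the 15 alternatives over genes or the 13 over probe sets. Gata4, Gata5, Hand2 and Nkx2-5 kept a lower mutant mean in all that tested them (Nkx2-5 in 14). So did every probe set of Gata4, Gata5 and Hand2. Part of this was fixed in advance. The replicate block, the trended robust prior and leaving out the dimmest 40% do not alter the difference of a gene kept. For Nkx2-5, with only 1 probe set, neither do the other probe set choices (−0.462 in each). With groups that do not overlap, Nkx2-5 and the standing probe set of Gata5 could not turn in sign when arrays were left out. Members with a lower mutant mean numbered 5 with the mean of all probe sets and 5 with the most variable one, and member probe sets 10 of 18 without mutant replicate 1, 10 without both arrays low in visceral endoderm markers, and 9 without the dimmest 40%, which tests fewer of them. Signs turned with the mean of all probe sets for Zfpm1 (0.020), Zfpm2 (0.55) and Hand1 (0.25), and with the most variable probe set for the same genes (0.10, 1.24 and 0.53). Leaving out 1 array at a time gave Gata6 −0.51 to 0.48, Hand1 −0.15 to 0.095, Irx4 −0.11 to 0.61, Gata6 1425464_at −0.52 to 0.36 and Gata6 1443081_at −0.52 to 0.043. Without both arrays low in visceral endoderm markers the sign turned for Gata6 (0.30, 0.10 and 0.11 for its probe sets 1425463_at, 1425464_at and 1443081_at) and Hand1 (0.018); the cause was not tested.

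Over all genes, 12 were called: 0 with the replicate block, 6 with centred arrays, 1 with the mean of all probe sets, 1 with the most variable one, 27 without both arrays low in visceral endoderm markers, and 0 to 92 leaving out 1 array. That count was 4, 0 and 2 without wild-type replicate 1, 2 or 3, and 92, 0 and 0 without mutant replicate 1, 2 or 3. Over all probe sets 8 were called: 1 with the replicate block, 0 with quantile normalization, 14 without the dimmest 40%, 16 with a trended robust prior, 13 with array weights, 29 without both arrays low in visceral endoderm markers, and 0 to 100 leaving out 1 array. Over all genes, replicate numbers paired the arrays little: deviations from group means correlated at 0.108, −0.0751 and −0.0161 for numbers 1, 2 and 3. Of 6 arrays, 2 correlated best with their own number. Among members this varied: the replicate block took the SE of Gata4 from 0.401 to 0.199 and that of Nkx2-5 from 0.155 to 0.18. Member probe sets at a limma unadjusted p under 0.05 went from 3 to 7 with the block, and all probe sets from 3991 to 3694. Signal near background limits Nkx2-5 and Zfpm2 1449314_at.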
